A study of Mus musculus with 16 samples.

Results

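Interferon-stimulated genes (ISGs) were followed in a mouse cell culture transfected with miR-106b. The 33 genes were chosen by symbol with earlier results of these data known, so that their counts beside all genes are a description. All 33 were found among the 46078 genes counted, and all 33 were among the 14897 genes that passed the filter on low counts, a minimum of 1 CPM (counts scaled to library size) reached by 3 or more of 4 replicates in 1 group or more. The cells were labelled engineered juxtaglomerular (JG) cells, which the methods of the study describe as cultured cells with a fluorescent reporter for renin, so that no library stands for an animal. They received miR-106b or a control by transfection and were collected after 48 h, as 4 libraries of polyA RNA and 4 libraries of RNA immunoprecipitated with Ago2 (Ago2-IP) for each transfection. PolyA cells were lysed as monolayers and Ago2-IP cells were trypsinized before lysis, so that the kind of RNA and the way of harvest cannot be told apart. No untransfected culture was analysed here, and both arms of every comparison of transfections were transfected. The methods of the study call the 4 replicates of a group biological, but how the cultures were separated is not given in the sources used here, and p-values measure the spread between these libraries.

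Type I interferons are secreted by cells that detect foreign nucleic acid, and they act through a receptor whose kinases phosphorylate STAT2. STAT2 acts with IRF9 in a complex that binds the interferon-stimulated response element (ISRE) in promoters of ISGs. The products include cytosolic RNA sensors, enzymes and membrane proteins that restrict viruses, and regulators such as IRF7 that extend the response. Short RNA duplexes delivered by transfection can engage some of these sensors, and microRNAs act by loading into Ago2 and pairing with 3′UTRs through their seed.

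The sequence of the transfected miRNA and the ISRE cores of the promoters are shown because they name the treatment and the element that defines the response. Whether they act on these genes was not tested. miR-106b-5p lies at chr5:138165787-138165807 on the minus strand of GRCm38.p6 (RefSeq), and its seed, bases 2 to 8, is in capitals. It shares this seed with 6 other mouse miRNAs of the RefSeq table, among them miR-17-5p, miR-20a-5p and miR-93-5p. RefSeq promoters of 300 bases, 250 before and 50 after the start of transcription, were matched by symbol for 26 of the 33 genes. The ISRE core searched was GAAANNGAAA, on both strands. It was present in 14 of the 26 genes (53.8%) and in 3.44% of all 32851 promoters, or 3.99% of symbols. The core of the gamma-activated site, TTCNNNGAA, was present in 6 of the 26 genes and in 8.30% of all promoters, and it overlapped an ISRE core in 2 cases. The windows below are those of the 5 ISGs with an ISRE core and the highest mean CPM over all 16 libraries, not corrected for gene length. They are written 5′ to 3′ on the strand of the gene with the core in capitals, as its reverse complement where the core is on the other strand.
miR-106b-5p: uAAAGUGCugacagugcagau
Ifitm3 chr7:141010706-141010735: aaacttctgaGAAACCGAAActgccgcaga
Ifitm3 chr7:141010723-141010752: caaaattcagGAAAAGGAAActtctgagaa
Bst2 chr8:71537577-71537606: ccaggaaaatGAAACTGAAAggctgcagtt
Bst2 chr8:71537583-71537612: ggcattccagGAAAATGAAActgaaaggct
Stat2 chr10:128270266-128270295: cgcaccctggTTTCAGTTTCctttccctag
Isg15 chr4:156200865-156200894: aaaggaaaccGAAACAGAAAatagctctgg
Isg15 chr4:156200871-156200900: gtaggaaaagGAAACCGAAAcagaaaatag
Isg15 chr4:156200877-156200906: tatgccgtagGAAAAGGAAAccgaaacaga
Ddx58 chr4:40239804-40239833: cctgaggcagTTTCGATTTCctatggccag

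Between 2579086 and 9459585 counts fell on genes per library, with medians of 6450099 in polyA control, 3645938 in polyA miR-106b libraries, and of 3638860 and 3264122 in the corresponding Ago2-IP libraries. A count of 0 allows a level of up to 3 counts, or 0.317 to 1.16 CPM depending on the depth of the library, a limit for counting error only. The defining marker of the labelled cell type was absent, since Ren1, which encodes renin, had 0 counts in all 16 libraries. Akr1b7, another marker of JG cells, had 6 counts in all. The other 10 markers of a list of 12 for JG and mural cells were tested, and summed to 2592 to 5743 CPM over the 16 libraries, with Des and Acta2 the most abundant. Markers of cardiac muscle, led by Myh6, Mb, Actc1, Tnnt2 and Mybpc3, took 2.55 to 3.62% of the counts in polyA control, 4.95 to 8.57% in polyA miR-106b libraries, and in Ago2-IP libraries 11.5 to 12.2% with the control and 11.1 to 12.2% with miR-106b. All 24 cardiac markers tested were higher in polyA RNA with miR-106b, with a median log2 change of 1.23, as were 13 of 14 markers of macrophages and leukocytes (median 1.19) and 9 of 10 of endothelium (median 1.18). Of the fibroblast markers 8 were higher and 2, Fn1 and Vim, lower (median 1.12), and of those of JG and mural cells 7 were higher and 1, Tagln, lower (median 1.10). Of 3 kidney epithelium markers tested 0 were higher and 1, Lrp2, was lower, and this list summed to 203 to 475 CPM in polyA and 3.14 to 32.5 CPM in Ago2-IP libraries. The cardiac, leukocyte and endothelial lists were higher in Ago2-IP than in polyA RNA of control cells, in 24 of 24, 13 of 14 and 10 of 10 markers. There 8 fibroblast markers were higher and 2 lower, 8 JG and mural markers higher and 2 lower, and 3 of 3 kidney epithelium markers lower. Which cells the cardiac, leukocyte and endothelial transcripts came from in a culture labelled JG cells was not tested, and each ISG value is that of the whole library. In such bulk samples fewer cells of a type and less RNA per cell cannot be told apart.

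In polyA RNA 22 of the 33 ISGs rose with miR-106b, 0 fell and 11 were not called (edgeR's quasi-likelihood test, adjusted p under 0.05). Over all genes tested 40.5% were called and 19.0% were called higher. The share of higher genes among those called was 47.0%, and it was 54.5% with DESeq2 size factors, 61.4% with all 16 libraries in 1 fit, and 59.8% and 60.1% without polyA control replicate 1 or 3. The median log2 change of the ISGs was 0.80, against -0.054 over all genes. In 18 ISGs every miR-106b library lay above every control library, a pattern held by 16.8% of all genes, and in 15 the groups overlapped. In Ago2-IP RNA 0 of the 33 were called, as were 0% of all genes. There 1 ISG (Ifit3) and 826 of all genes had an unadjusted p under 0.05, and DESeq2 called 0 ISGs and 2 genes in all. The median log2 change of the ISGs in Ago2-IP RNA was -0.063, with a range of -0.58 to 0.29.

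The change of the Ago2:polyA ratio, tested as an interaction term over all 16 libraries, was called in 20 of the 33 ISGs. All 20 had a lower ratio with miR-106b, where 27.3% of all genes were called and 19.7% were called lower. The median log2 change of the ratio was -1.06 for the ISGs and -0.070 over all genes. Scaling by library size only moved the median of all genes to 0.0996 and that of the ISGs to -0.89, with 19 ISGs called, and moved the share of higher genes among those called from 27.9% to 46.5%. This ratio contains the polyA libraries of the first comparison, so that both comparisons share them and their calls are not separate evidence. In the control transfection 27 ISGs were higher in Ago2-IP than in polyA RNA, against 35.4% of all genes, and 1 was lower, against 37.9% of all genes. The median log2 difference was 1.68 for the ISGs and -0.063 for all genes. With library size only these medians were 1.39 and -0.35, with 27 ISGs higher and 4 lower, and the share of higher genes among those called fell from 48.3% to 37.6%. The 24 ISGs with every Ago2-IP control library above every polyA control library stood against 8 that overlapped and 1 below, on CPM scaled within each RNA kind. Of all genes 26.3% lay wholly above on this scale and 44.1% wholly below.

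**Figure D1:**
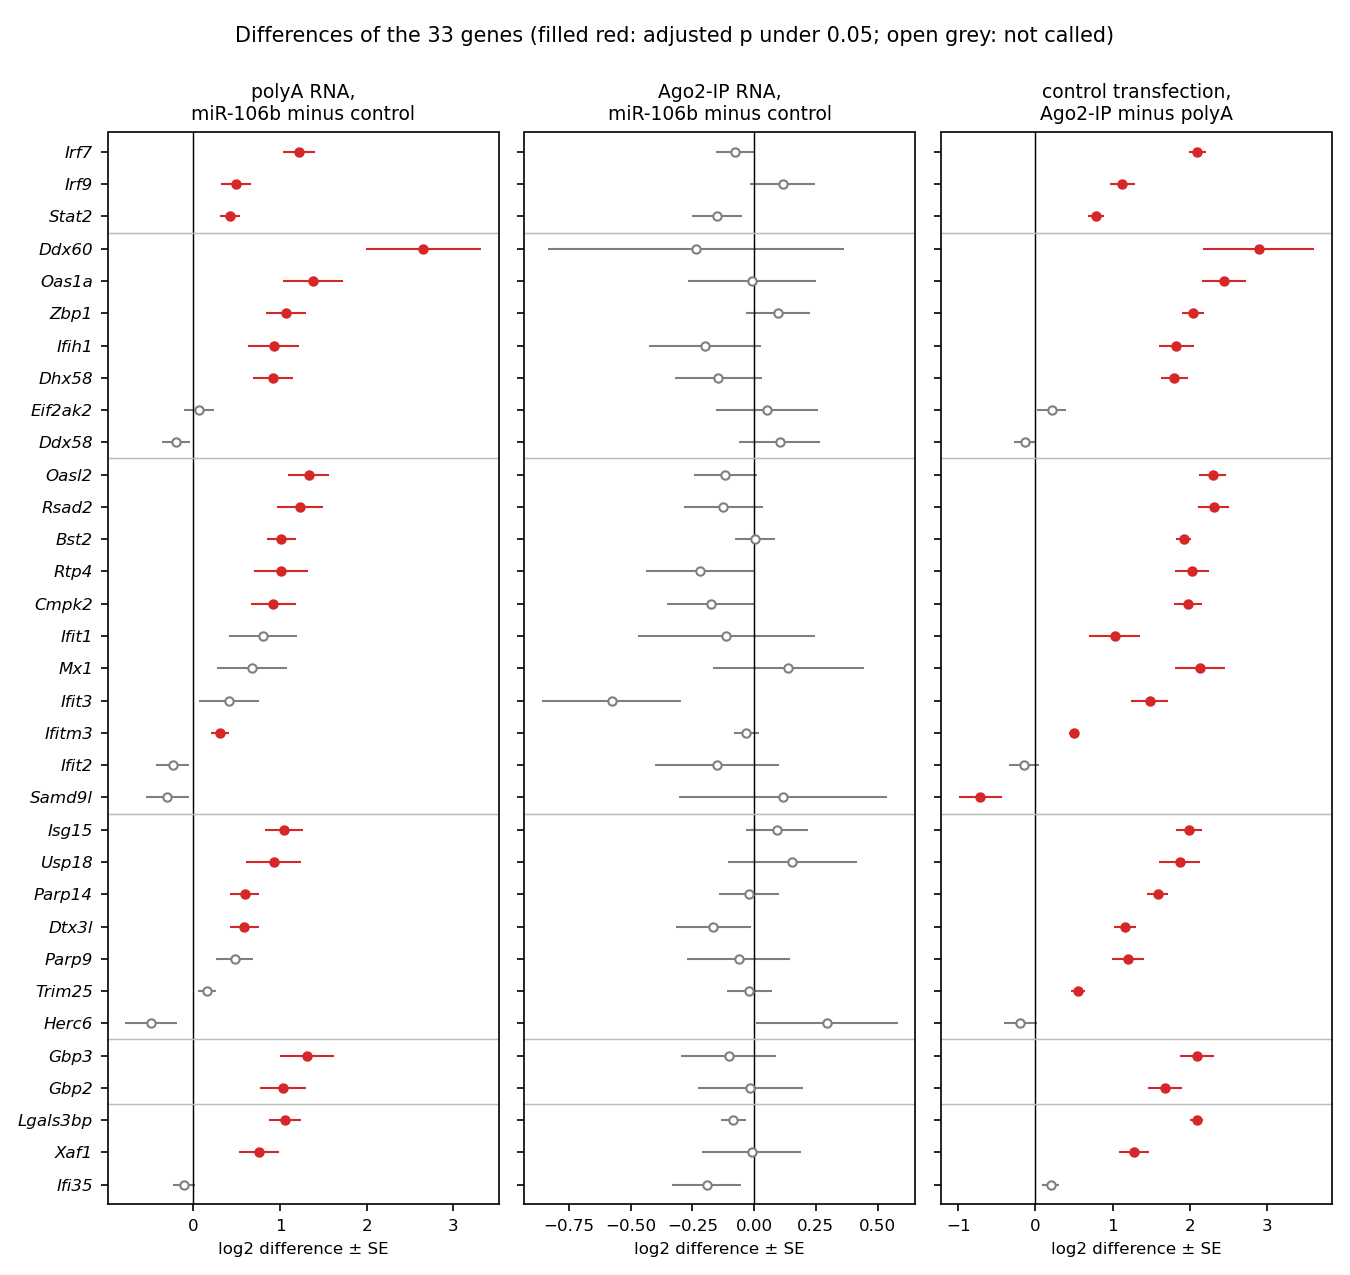
Log2 differences of the 33 ISGs, ordered by role, in polyA RNA with miR-106b, in Ago2-IP RNA with miR-106b and between Ago2-IP and polyA RNA of control cells (points, fitted log2 difference; bars, SE; filled red, adjusted p under 0.05; the 3 horizontal axes have different ranges). Of the 33 genes 22 are red in polyA RNA, 0 in Ago2-IP RNA and 28 between the RNA kinds.

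All 3 transcription factor genes of the list, Irf7, Irf9 and Stat2, rose in polyA RNA. Irf7 (chr7:141262706-141266481, GRCm38) encodes the interferon regulatory factor that drives expression of type I interferon genes. In Irf7 the polyA control libraries held 24.4, 22.2, 22.3 and 34.3 CPM and the polyA miR-106b libraries 45.9, 72.5, 51.1 and 71.2 CPM, in the order of replicates 1 to 4. Its Ago2-IP levels were 90.1, 92.4, 84.0 and 95.4 CPM in the Ago2-IP of control cells and 75.3, 82.2, 87.6 and 97.4 CPM in that of miR-106b cells. All 4 polyA miR-106b libraries lay above all polyA controls, and all Ago2-IP libraries lay above both. Changes are given on the log2 scale throughout. Irf7 rose in polyA RNA by 1.22 ± 0.185 (SE, adjusted p = 0.000683), and its Ago2:polyA ratio changed by -1.44 ± 0.207 (SE, adjusted p = 2.72e-05). Irf9, the DNA-binding subunit of the complex with STAT2, had 19.5, 17.3, 13.6 and 23.3 CPM in polyA control and 26.2, 28.4, 21.5 and 27.1 CPM in polyA miR-106b libraries. Its levels were 44.2, 26.6, 33.7 and 28.0 CPM in the Ago2-IP of control cells and 35.7, 33.1, 32.6 and 41.4 CPM in that of miR-106b cells. The polyA groups overlapped by 1 control library. The log2 fold change of Irf9 was 0.49 ± 0.172 (SE, adjusted p = 0.0371) and its ratio, at -0.52 ± 0.239 (SE, adjusted p = 0.109), was not called. The call of Irf9 was lost on leaving out polyA control replicate 2, polyA control replicate 3, polyA miR-106b replicate 2 or polyA miR-106b replicate 4, with adjusted p of 0.101, 0.0624, 0.0919 and 0.0786. Stat2, which encodes a target of the receptor's kinases, had 35.3, 37.6, 35.2 and 41.8 CPM in polyA control and 46.8, 53.3, 48.3 and 53.0 CPM in polyA miR-106b libraries, with no overlap. The Ago2-IP levels of Stat2 were 63.0, 46.7, 55.5 and 48.6 CPM in the Ago2-IP of control cells and 50.1, 48.3, 50.4 and 44.0 CPM in that of miR-106b cells. Its log2 fold change in polyA RNA was 0.42 ± 0.112 (SE, adjusted p = 0.00924) and its ratio changed by -0.72 ± 0.154 (SE, adjusted p = 0.00106). Exons of Irf7 share 45 bases with Phrf1 on the opposite strand and those of Irf9 share 123 bases with Rnf31, and the libraries were not strand-specific.

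Of 7 genes for nucleic acid sensors 5 rose in polyA RNA and 2 were not called, among them Ddx58, which encodes RIG-I, the sensor of RNA ends. In Ddx58 the polyA control libraries held 24.0, 19.7, 27.3 and 24.5 CPM and the polyA miR-106b libraries 25.3, 19.8, 17.1 and 20.4 CPM. Its Ago2-IP levels were 17.4, 19.9, 15.6 and 18.4 CPM in the Ago2-IP of control cells and 21.4, 14.0, 23.9 and 17.8 CPM in that of miR-106b cells. The 4 groups overlapped, and the log2 fold change in polyA RNA was -0.20 ± 0.159 (SE, adjusted p = 0.341). Ifih1, which encodes the RNA sensor MDA5, had 3.64, 2.73, 3.15 and 4.55 CPM in polyA control and 6.05, 10.2, 5.52 and 4.45 CPM in polyA miR-106b libraries. Its levels in Ago2-IP RNA were 11.4, 12.3, 8.62 and 8.54 CPM in the Ago2-IP of control cells and 10.1, 8.19, 10.3 and 7.0 CPM in that of miR-106b cells. These values rest on 96 counts over the polyA controls and 97 over the polyA miR-106b libraries. The polyA groups overlapped by 1 library of each, and the log2 fold change was 0.93 ± 0.294 (SE, adjusted p = 0.0232). The call of Ifih1 was lost on leaving out polyA control replicate 2 or polyA miR-106b replicate 2, with adjusted p of 0.0792 and 0.101. Dhx58 (LGP2), the RIG-I-like helicase without signalling domains, had 5.22, 4.62, 5.999 and 6.47 CPM in polyA control and 7.17, 12.6, 10.2 and 12.6 CPM in polyA miR-106b libraries. Its levels were 15.7, 15.1, 14.8 and 18.0 CPM in the Ago2-IP of control cells and 12.0, 17.3, 16.2 and 12.0 CPM in that of miR-106b cells. Dhx58 rose by 0.92 ± 0.230 (SE, adjusted p = 0.00683) on the log2 scale in polyA RNA, with no overlap.

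Zbp1, a sensor of Z-form nucleic acid that can trigger cell death, had 8.70, 7.24, 8.40 and 8.75 CPM in polyA control and 10.5, 23.8, 15.7 and 20.03 CPM in polyA miR-106b libraries. Its levels were 29.4, 25.8, 25.6 and 31.1 CPM in the Ago2-IP of control cells and 28.7, 29.5, 32.3 and 29.2 CPM in that of miR-106b cells. The polyA groups did not overlap, and Zbp1 rose by 1.07 ± 0.231 (SE, adjusted p = 0.003) on the log2 scale. Oas1a, an oligoadenylate synthetase that activates RNase L, had 1.42, 1.68, 1.95 and 1.75 CPM in polyA control and 3.58, 7.49, 3.31 and 3.34 CPM in polyA miR-106b libraries. Its levels were 5.99, 9.24, 9.97 and 5.91 CPM in the Ago2-IP of control cells and 9.32, 7.61, 5.49 and 8.46 CPM in that of miR-106b cells. It rose by 1.38 ± 0.347 (SE, adjusted p = 0.00722), with replicate 2 far above the other miR-106b libraries. Eif2ak2, the RNA-dependent kinase PKR, had 11.9, 14.9, 12.0 and 11.0 CPM in polyA control and 15.7, 12.8, 11.3 and 12.2 CPM in polyA miR-106b libraries. The Ago2-IP levels of Eif2ak2 were 14.0, 11.8, 14.8 and 7.88 CPM in the Ago2-IP of control cells and 10.1, 15.8, 10.02 and 13.4 CPM in that of miR-106b cells. The 4 groups of Eif2ak2 overlapped, and its log2 fold change in polyA RNA was 0.065 ± 0.174 (SE, adjusted p = 0.791). Ddx60, a helicase linked to RIG-I signalling, was the least abundant of the 33, with 8 counts over the 4 polyA controls, 27 over the polyA miR-106b libraries, and 28 and 20 over the Ago2-IP libraries of control and miR-106b cells. The fitted change of Ddx60 in polyA RNA, 2.65 ± 0.665 (SE, adjusted p = 0.00712), rested on these few counts, with 0 counts in polyA control replicate 4. Ddx60 reached 1 CPM in 0 of 4 polyA controls and passed the filter only through polyA miR-106b and Ago2-IP control libraries, so that its calls, which are among the 22 in polyA RNA, the 20 of the ratio and the 27 higher in Ago2-IP RNA, support nothing. The same holds for its place among the 18 ISGs with every polyA miR-106b library above every control library.

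Of the 11 antiviral effectors 6 rose in polyA RNA and 5 were not called. Ifitm3, a membrane protein that blocks virus entry at endosomes, was the most abundant of the 33. In Ifitm3 the polyA control libraries held 219, 219.6, 214 and 235 CPM and the polyA miR-106b libraries 301, 279, 249.6 and 269 CPM. Its Ago2-IP levels were 254, 247, 277 and 255 CPM in the Ago2-IP of control cells and 247, 243, 261 and 259 CPM in that of miR-106b cells. The polyA groups did not overlap, but the log2 fold change was small at 0.31 ± 0.102 (SE, adjusted p = 0.028). The call of Ifitm3 was lost on leaving out polyA control replicate 2 or polyA miR-106b replicate 2, with adjusted p of 0.0834 and 0.0552. It was also lost with no filter on low counts, at an adjusted p of 0.0801. Bst2, which encodes the virion tether tetherin, had 25.8, 22.4, 24.7 and 27.6 CPM in polyA control and 37.9, 55.9, 44.2 and 66.4 CPM in polyA miR-106b libraries. Its levels were 89.8, 70.8, 71.4 and 81.0 CPM in the Ago2-IP of control cells and 83.5, 76.1, 76.3 and 78.2 CPM in that of miR-106b cells. Bst2 rose by 1.02 ± 0.166 (SE, adjusted p = 0.00077), and all its Ago2-IP libraries lay above all its polyA libraries. Oasl2, an oligoadenylate synthetase-like protein, had 7.75, 6.19, 8.40 and 12.4 CPM in polyA control and 16.1, 22.5, 20.2 and 28.6 CPM in polyA miR-106b libraries. The levels of Oasl2 were 31.1, 36.9, 41.5 and 28.9 CPM in the Ago2-IP of control cells and 30.3, 27.2, 37.5 and 32.4 CPM in that of miR-106b cells. Oasl2 rose by 1.33 ± 0.234 (SE, adjusted p = 0.00103) with no overlap. Rsad2 (viperin), a radical enzyme that makes a chain-terminating nucleotide, had 5.54, 2.94, 5.85 and 5.60 CPM in polyA control and 8.29, 11.5, 11.6 and 15.2 CPM in polyA miR-106b libraries. The levels of Rsad2 were 23.1, 17.1, 22.1 and 17.7 CPM in the Ago2-IP of control cells and 21.7, 20.5, 15.2 and 16.04 CPM in that of miR-106b cells. It rose by 1.23 ± 0.264 (SE, adjusted p = 0.00302), and all polyA miR-106b libraries lay above all controls.

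Cmpk2, the nucleotide kinase that neighbours Rsad2 in the genome, had 5.06, 4.30, 4.80 and 5.07 CPM in polyA control and 5.38, 11.2, 8.56 and 11.9 CPM in polyA miR-106b libraries. Its levels were 18.0, 14.8, 13.7 and 15.8 CPM in the Ago2-IP of control cells and 13.6, 16.1, 11.0 and 14.3 CPM in that of miR-106b cells. Cmpk2 rose by 0.92 ± 0.256 (SE, adjusted p = 0.012) on the log2 scale. Rtp4, a chaperone-like protein of the interferon response, had 3.64, 3.04, 2.40 and 4.02 CPM in polyA control and 5.82, 9.63, 3.59 and 7.42 CPM in polyA miR-106b libraries. Its levels were 10.3, 13.7, 10.5 and 9.63 CPM in the Ago2-IP of control cells and 6.60, 11.7, 10.3 and 8.75 CPM in that of miR-106b cells. The polyA groups of Rtp4 overlapped and its log2 fold change was 1.01 ± 0.310 (SE, adjusted p = 0.0197). The call of Rtp4 was lost on leaving out polyA control replicate 2, polyA miR-106b replicate 2 or polyA miR-106b replicate 4, with adjusted p of 0.0581, 0.0828 and 0.0503. The IFIT genes, whose products bind viral RNA, were not called in polyA RNA. Ifit1 had 4.11, 1.89, 1.65 and 2.1 CPM in polyA control and 2.02, 5.62, 4.42 and 5.19 CPM in polyA miR-106b libraries, and 3.99, 3.64, 3.23 and 5.25 CPM in the Ago2-IP of control cells and 4.27, 3.80, 2.59 and 4.37 CPM in that of miR-106b cells. Its log2 fold change in polyA RNA was 0.80 ± 0.393 (SE, adjusted p = 0.121). Without polyA control replicate 1 or without polyA miR-106b replicate 1 Ifit1 was called, at an adjusted p of 0.0309 and 0.018. Ifit2 had 13.6, 9.02, 10.6 and 11.9 CPM in polyA control and 8.74, 8.56, 9.66 and 11.5 CPM in polyA miR-106b libraries, and 7.13, 10.6, 7.54 and 8.10 CPM in the Ago2-IP of control cells and 10.5, 5.56, 7.43 and 7.0 CPM in that of miR-106b cells. Ifit3 had 3.95, 2.94, 3.15 and 2.97 CPM in polyA control and 2.69, 5.62, 2.48 and 7.05 CPM in polyA miR-106b libraries, and 8.84, 5.88, 8.08 and 7.22 CPM in the Ago2-IP of control cells and 3.88, 5.85, 5.82 and 4.37 CPM in that of miR-106b cells. All 3 had overlapping polyA groups. In Ago2-IP RNA every Ifit3 value with miR-106b lay below every control value, but the change of -0.58 ± 0.282 (SE, adjusted p = 0.88) was not called.

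Mx1, a dynamin-like GTPase against influenza virus, had 1.11, 1.57, 1.05 and 1.75 CPM in polyA control and 1.57, 3.75, 1.66 and 1.85 CPM in polyA miR-106b libraries. Its levels were 4.85, 5.32, 6.20 and 3.94 CPM in the Ago2-IP of control cells and 6.99, 5.27, 5.82 and 4.37 CPM in that of miR-106b cells. Mx1 was not called in polyA RNA, at 0.67 ± 0.403 (SE, adjusted p = 0.202) with 39 and 32 counts behind the groups. Its change was 0.28 without polyA miR-106b replicate 2 and 0.92 without polyA miR-106b replicate 1. Every Ago2-IP library lay above every polyA library. Samd9l, a restriction factor of poxviruses, had 5.22, 5.67, 6.30 and 6.65 CPM in polyA control and 3.58, 5.62, 3.86 and 6.68 CPM in polyA miR-106b libraries. Its levels were 2.28, 1.68, 4.31 and 3.50 CPM in the Ago2-IP of control cells and 4.66, 2.05, 1.94 and 4.37 CPM in that of miR-106b cells. It was the 1 ISG lower in Ago2-IP than in polyA RNA of control cells, by a log2 difference of -0.72 ± 0.280 (SE, adjusted p = 0.0255). The call of Samd9l was lost on leaving out polyA control replicate 3, Ago2-IP control replicate 1 or Ago2-IP control replicate 2, with adjusted p of 0.051, 0.0713 and 0.0901. It was also lost with DESeq2 and with all 16 libraries in 1 fit, at adjusted p of 0.051 and 0.0552.

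Of 7 genes of the ubiquitin-like system and its PARP partners 4 rose in polyA RNA and 3 were not called. Isg15, the ubiquitin-like protein that is conjugated to other proteins, had 12.7, 9.76, 6.75 and 12.6 CPM in polyA control and 17.5, 27.3, 19.3 and 21.9 CPM in polyA miR-106b libraries. Its levels were 40.5, 37.8, 31.2 and 26.9 CPM in the Ago2-IP of control cells and 32.2, 41.5, 39.4 and 31.2 CPM in that of miR-106b cells. Isg15 rose by 1.04 ± 0.216 (SE, adjusted p = 0.00245) with no overlap, and its ratio changed by -1.10 ± 0.262 (SE, adjusted p = 0.0026). Usp18, the protease that removes ISG15 and dampens receptor signalling, had 2.85, 2.41, 1.65 and 2.45 CPM in polyA control and 2.69, 5.89, 4.69 and 4.82 CPM in polyA miR-106b libraries. Its levels were 7.70, 6.998, 5.39 and 8.32 CPM in the Ago2-IP of control cells and 7.77, 5.56, 10.7 and 7.87 CPM in that of miR-106b cells. Usp18 rose by 0.93 ± 0.317 (SE, adjusted p = 0.0328), with overlapping groups. The call of Usp18 was lost on leaving out polyA control replicate 2, polyA control replicate 3, polyA control replicate 4, polyA miR-106b replicate 2, polyA miR-106b replicate 3 or polyA miR-106b replicate 4, with adjusted p of 0.0724, 0.0712, 0.0539, 0.109, 0.0561 and 0.0694. Trim25, the ubiquitin ligase that acts on RIG-I, had 55.4, 53.7, 55.6 and 58.4 CPM in polyA control and 61.8, 66.1, 56.3 and 65.3 CPM in polyA miR-106b libraries. The levels of Trim25 were 57.3, 75.0, 67.3 and 69.4 CPM in the Ago2-IP of control cells and 57.9, 65.5, 64.3 and 77.3 CPM in that of miR-106b cells. Trim25 was not called in polyA RNA, at 0.16 ± 0.103 (SE, adjusted p = 0.233), with an approximate 95% interval of -0.041 to 0.36. Herc6, the mouse ligase for ISG15, had 6.17, 8.08, 7.35 and 8.57 CPM in polyA control and 2.46, 8.30, 5.25 and 5.94 CPM in polyA miR-106b libraries. The levels of Herc6 were 5.13, 4.20, 6.20 and 6.13 CPM in the Ago2-IP of control cells and 6.21, 9.07, 5.49 and 5.83 CPM in that of miR-106b cells. Its change in polyA RNA, -0.48 ± 0.298 (SE, adjusted p = 0.216), was not called, and it was -0.12 without polyA miR-106b replicate 1 and -0.78 without polyA miR-106b replicate 2.

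Parp14, an ADP-ribosyltransferase, had 13.9, 11.2, 14.8 and 14.5 CPM in polyA control and 17.2, 23.3, 18.2 and 23.7 CPM in polyA miR-106b libraries. Its levels were 33.9, 31.6, 28.8 and 39.4 CPM in the Ago2-IP of control cells and 30.3, 33.6, 35.9 and 32.4 CPM in that of miR-106b cells. It rose by 0.59 ± 0.166 (SE, adjusted p = 0.0126) with no overlap. On leaving out polyA control replicate 2 Parp14 was no longer called, at an adjusted p of 0.0519. Dtx3l, a ubiquitin ligase, had 10.4, 10.9, 11.8 and 12.6 CPM in polyA control and 14.8, 21.7, 17.1 and 15.2 CPM in polyA miR-106b libraries. Its levels were 20.8, 23.0, 18.9 and 21.7 CPM in the Ago2-IP of control cells and 21.7, 16.1, 19.4 and 18.4 CPM in that of miR-106b cells. It rose by 0.59 ± 0.169 (SE, adjusted p = 0.0142) with no overlap. On leaving out polyA miR-106b replicate 2 Dtx3l was no longer called, at an adjusted p of 0.0522. Parp9, the partner protein of DTX3L, had 6.64, 6.72, 5.85 and 7.35 CPM in polyA control and 9.41, 6.42, 9.66 and 11.9 CPM in polyA miR-106b libraries. The levels of Parp9 were 7.70, 11.8, 15.4 and 15.3 CPM in the Ago2-IP of control cells and 14.8, 10.8, 8.40 and 14.6 CPM in that of miR-106b cells. Parp9 was not called, at 0.48 ± 0.215 (SE, adjusted p = 0.0923). Without polyA miR-106b replicate 2 Parp9 was called, at an adjusted p of 0.0344. Parp9 and Dtx3l share 458 exonic bases on opposite strands, so that reads there cannot be told apart in these unstranded libraries.

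Both guanylate-binding proteins of the list, GTPases that attack the vacuoles of pathogens, rose in polyA RNA. Gbp2 had 3.64, 5.04, 3.15 and 3.67 CPM in polyA control and 5.60, 9.90, 6.90 and 10.4 CPM in polyA miR-106b libraries, and 11.1, 8.96, 12.9 and 8.98 CPM in the Ago2-IP of control cells and 12.0, 9.07, 10.02 and 10.5 CPM in that of miR-106b cells. Gbp3 had 4.43, 3.78, 2.55 and 4.55 CPM in polyA control and 5.60, 14.5, 7.45 and 10.8 CPM in polyA miR-106b libraries, and 12.6, 16.8, 10.8 and 13.8 CPM in the Ago2-IP of control cells and 13.2, 11.7, 10.7 and 14.6 CPM in that of miR-106b cells. Their log2 fold changes were 1.04 ± 0.265 (SE, adjusted p = 0.00797) and 1.31 ± 0.310 (SE, adjusted p = 0.00518), with no overlap of the polyA groups, but similar paralogs of this family can split reads. Lgals3bp, a secreted glycoprotein that binds galectins, had 76.9, 61.1, 66.0 and 85.9 CPM in polyA control and 105.7, 186, 127 and 185 CPM in polyA miR-106b libraries. Its levels were 261, 258, 251 and 246 CPM in the Ago2-IP of control cells and 229, 229, 247 and 253 CPM in that of miR-106b cells. Lgals3bp rose by 1.06 ± 0.183 (SE, adjusted p = 0.000957) and its ratio changed by -1.29 ± 0.198 (SE, adjusted p = 5.16e-05). Xaf1, an antagonist of the apoptosis inhibitor XIAP, had 6.96, 4.41, 5.85 and 6.12 CPM in polyA control and 8.06, 10.2, 8.28 and 13.4 CPM in polyA miR-106b libraries. Its Ago2-IP levels were 12.8, 11.8, 9.70 and 11.8 CPM in the Ago2-IP of control cells and 10.1, 13.5, 10.3 and 11.7 CPM in that of miR-106b cells. Xaf1 rose by 0.76 ± 0.232 (SE, adjusted p = 0.019) with no overlap. The call of Xaf1 was lost on leaving out polyA control replicate 2 or polyA miR-106b replicate 4, with adjusted p of 0.0703 and 0.0644. Ifi35, a leucine zipper protein, had 28.8, 24.9, 25.6 and 26.4 CPM in polyA control and 21.7, 27.3, 25.4 and 23.7 CPM in polyA miR-106b libraries. The Ago2-IP levels of Ifi35 were 25.1, 23.2, 26.4 and 25.2 CPM in the Ago2-IP of control cells and 22.5, 19.3, 23.6 and 22.2 CPM in that of miR-106b cells. Its polyA groups overlapped, at -0.11 ± 0.127 (SE, adjusted p = 0.535), and the sign of this change turned in 3 of the alternatives given with the limits. Ifi35 shares 290 exonic bases, 16.8% of its own, with the antisense gene Gm11626.

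Levels between genes were compared per kilobase of annotated exons, as the mean CPM per kb over all 16 libraries. Ifitm3 stood first at 371 CPM per kb, followed by Bst2 at 64.5, Lgals3bp at 62.9, Isg15 at 33.8 and Irf7 at 17.4 CPM per kb. The next were Ifi35 at 14.2 and Trim25 at 10.9 CPM per kb. Ddx60 stood last at 0.164 CPM per kb. Bst2 and Lgals3bp changed places between groups, at 27.8 and 25.5 CPM per kb in polyA control and 86.7 and 89.2 CPM per kb in Ago2-IP control libraries, a difference smaller than the SD of the Bst2 libraries in both. The order of the next 4 also depended on the group. In polyA control it was Ifi35 at 15.3, Isg15 at 13.8, Trim25 at 9.70 and Irf7 at 6.84 CPM per kb, where the libraries of Isg15 overlapped those of Ifi35 and of Trim25. In Ago2-IP control it was Isg15 at 45.1, Irf7 at 24.0, Ifi35 at 14.5 and Trim25 at 11.7 CPM per kb, with no overlap between neighbours.

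**Figure D2:**
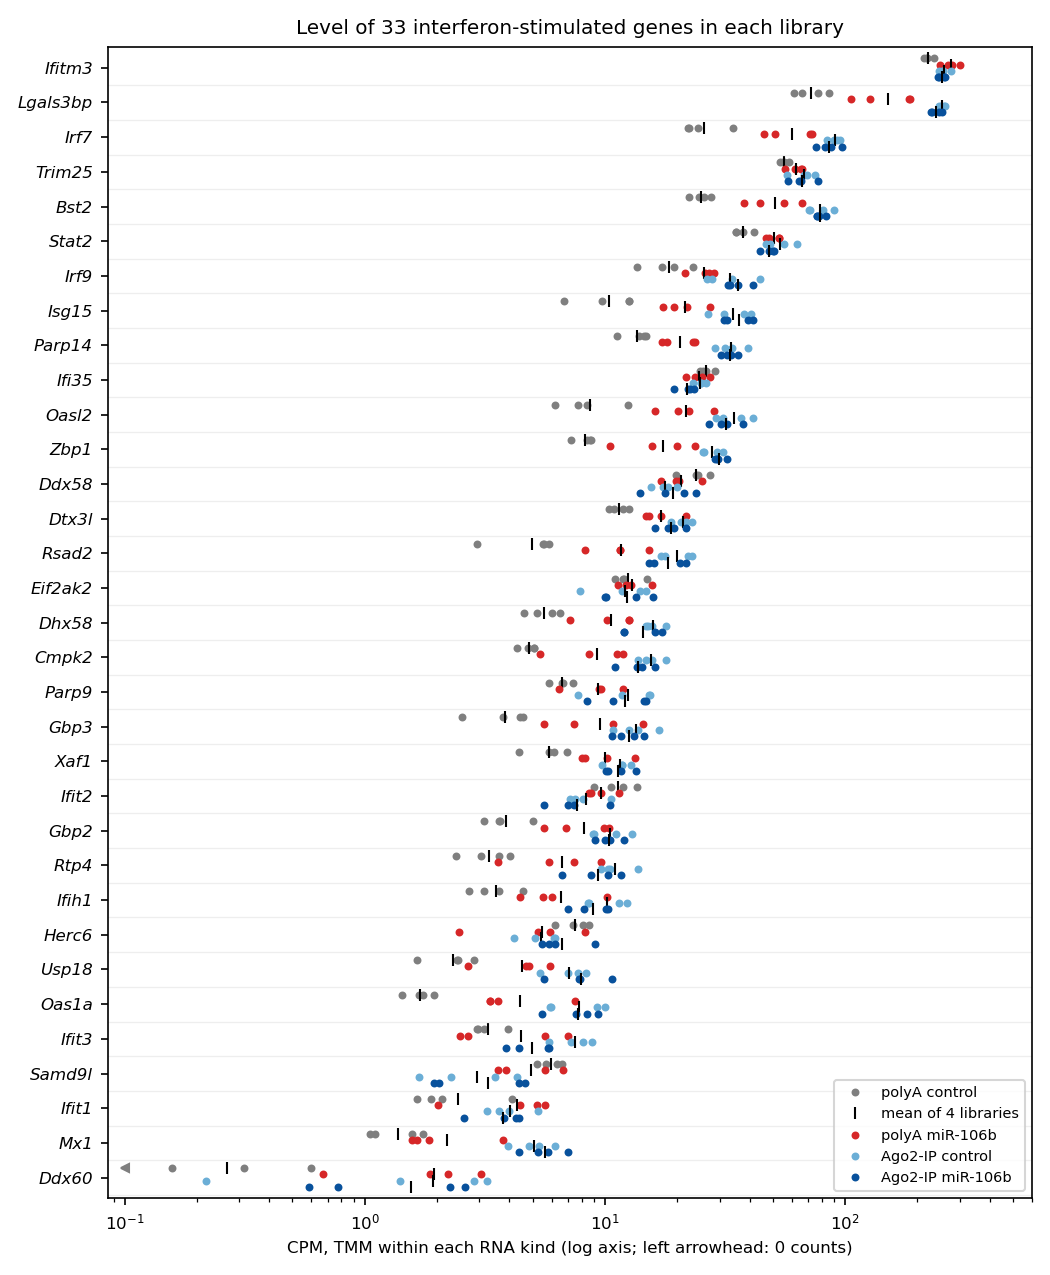
CPM of the 33 ISGs in each of the 16 libraries on a log axis, scaled by TMM within each RNA kind, from the most abundant gene at the top (points, libraries; vertical ticks, means of 4 libraries; arrowhead, 0 counts). For Irf7 and Oasl2 the polyA miR-106b libraries lie above the polyA control libraries and, for Irf7, below the Ago2-IP libraries.

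The order of libraries within each group was read for the cardiac markers and the ISGs, as a description with no test. Among polyA miR-106b libraries the summed cardiac markers ran from high to low in the order of replicates 2, 4, 3 and 1. Of the 22 ISGs that rose, 14 were highest in replicate 2, 17 were lowest in replicate 1, and 15 had replicates 2 and 4 both above replicates 1 and 3. Of all genes 20.1% were highest in replicate 2, 31.9% were lowest in replicate 1 and 20.8% had that pair above the others. The 22 were selected as higher with miR-106b and all genes were not. These shares, and those below for the highest and lowest libraries, are therefore not a like comparison. Among polyA controls the order was 4, 1, 3 and 2, with 14 of the 22 highest in replicate 4 and 11 lowest in replicate 2, against 33.2% and 24.2% of all genes. In the Ago2-IP of control cells 4 of the 22 were highest in the library with the most cardiac counts and 8 lowest in that with the fewest, against 24.6% and 26.5% of all genes. In the Ago2-IP of miR-106b cells these counts were 5 and 8, against 25.2% and 25.8%. The ISGs were also expressed per 1000 CPM of summed cardiac markers, as a description with no test. Irf7 was at 0.849 ± 0.0863 in polyA control, 0.855 ± 0.0393 in polyA miR-106b libraries, and at 0.758 ± 0.0484 and 0.729 ± 0.0575 in the Ago2-IP of control and miR-106b cells (mean ± SD, n = 4). Oasl2 was at 0.284 ± 0.0514 in polyA control, 0.311 ± 0.0367 in polyA miR-106b libraries, and at 0.289 ± 0.0464 and 0.271 ± 0.0309 in the Ago2-IP of control and miR-106b cells (mean ± SD, n = 4). Rsad2 was at 0.164 ± 0.0407 in polyA control, 0.166 ± 0.0264 in polyA miR-106b libraries, and at 0.167 ± 0.0251 and 0.157 ± 0.0326 in the Ago2-IP of control and miR-106b cells (mean ± SD, n = 4). These 3 genes had overlapping polyA groups on this scale. Isg15 was at 0.343 ± 0.0659 in polyA control, 0.309 ± 0.0399 in polyA miR-106b libraries, and at 0.285 ± 0.0454 and 0.309 ± 0.0516 in the Ago2-IP of control and miR-106b cells (mean ± SD, n = 4). Lgals3bp was at 2.39 ± 0.0267 in polyA control, 2.12 ± 0.0196 in polyA miR-106b libraries, and at 2.12 ± 0.0227 and 2.04 ± 0.0391 in the Ago2-IP of control and miR-106b cells (mean ± SD, n = 4). Ifitm3 was at 7.44 ± 1.003 in polyA control, 4.11 ± 1.33 in polyA miR-106b libraries, and at 2.16 ± 0.139 and 2.15 ± 0.0329 in the Ago2-IP of control and miR-106b cells (mean ± SD, n = 4). On this scale 0 of the 22 ISGs that rose had every polyA miR-106b library above every control, 15 overlapped and 7 (Bst2, Dtx3l, Ifitm3, Lgals3bp, Parp14, Stat2 and Xaf1) had every miR-106b library below every control. Of the 11 ISGs not called, 3 overlapped and 8 lay below. Over all genes tested 0.134% lay wholly above on this scale and 65.2% wholly below. Without polyA miR-106b replicates 2 and 4, the pair with the most cardiac counts, 7 ISGs rose in place of 22 and 20 had an unadjusted p under 0.05. Calls over all genes fell with this omission too, from 40.5% to 20.9%, and those higher from 19.0% to 11.0%. The pair was chosen after seeing the data, and 15 of the 22 had it above the other libraries of the group. No other pair was left out, so that the lower count decides nothing about the cardiac markers. The part of the cardiac and other marker transcripts in the rise of the ISGs was not tested.

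**Figure D3:**
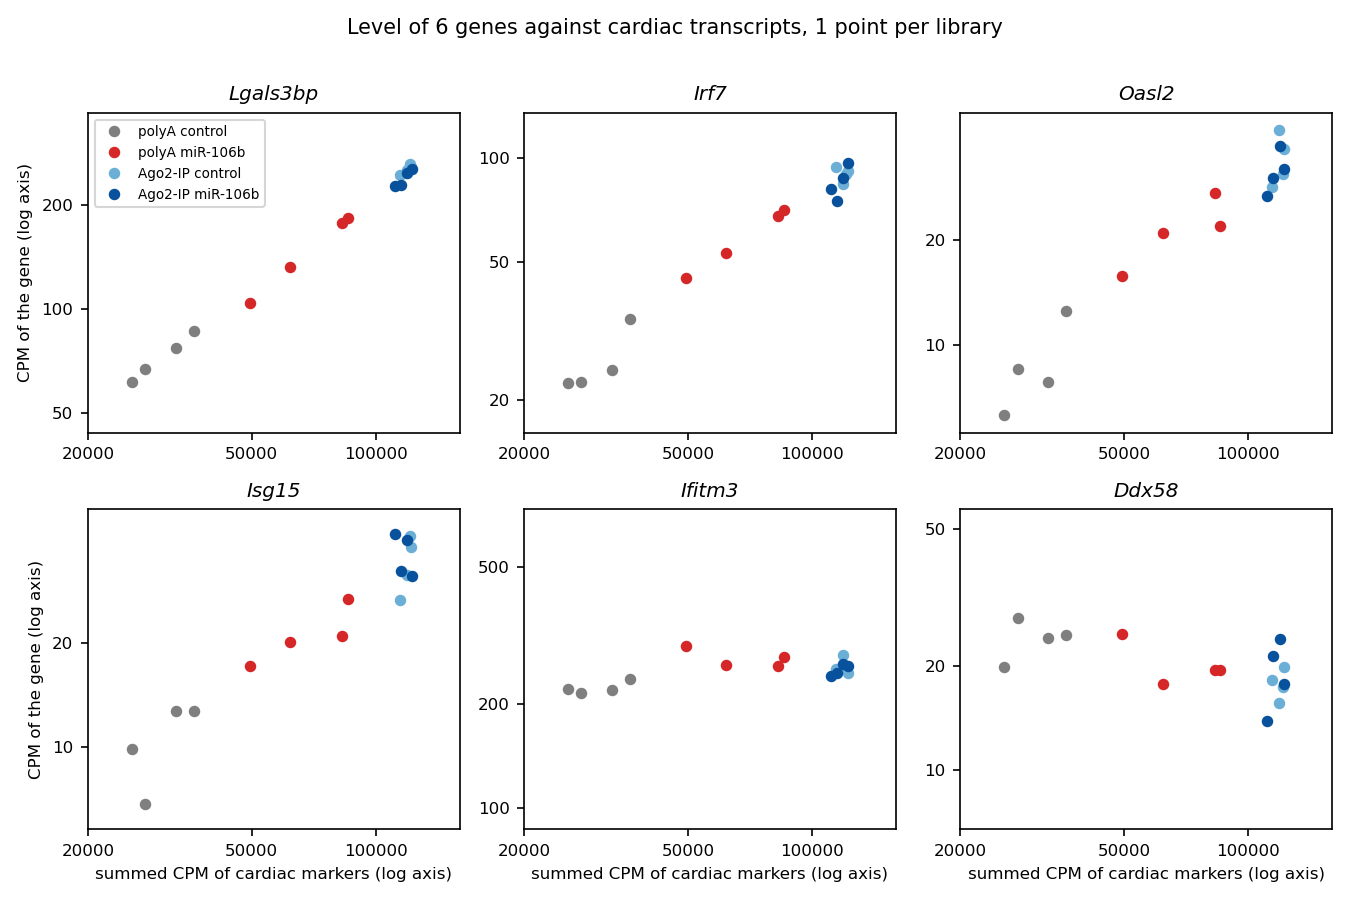
CPM of 6 ISGs against the summed CPM of 25 cardiac markers in the same library, both scaled to library size and on log axes (points, 16 libraries, coloured by group). Lgals3bp, Irf7, Oasl2 and Isg15 are higher in libraries with more cardiac counts, Ifitm3 spans 216 to 295 CPM and Ddx58 shows no such rise.

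The rest of the pathway was read from a list of 66 genes in 8 groups, of which 44 were tested and 14 rose and 4 fell in polyA RNA. The 40.9% called stood near the 40.5% of all genes, with 19.0% of all genes higher and 21.5% lower, so that the counts below are a description of single genes and not a result about the pathway. The genes of the ligands were near the limit of detection. Of 21 interferon ligand genes 0 passed the filter, Ifnb1 had 1 count in all 16 libraries, and the highest had 5. Of 6 receptor subunits 2 rose, Ifnlr1 of the lambda receptor by 1.27 ± 0.344 (SE, adjusted p = 0.0107) and Il10rb by 0.55 ± 0.148 (SE, adjusted p = 0.00996) on the log2 scale. Ifnar1, a subunit of the type I receptor, had mean levels of 52.3 and 49.7 CPM in polyA control and miR-106b libraries, at -0.068 ± 0.122 (SE, adjusted p = 0.689). Of the receptor kinase genes Jak1, Jak2 and Tyk2, 0 of 3 were called. Irf2 rose by 0.30 ± 0.107 (SE, adjusted p = 0.0417), 1 of 4 other IRF factors. Upstream of interferon 5 of 12 genes rose, namely Tlr7, Tlr9, Myd88, Mavs and Tmem173, and 2 fell, the adaptor ligases Traf3 and Traf6. Tlr7 had 7 counts over the polyA controls, at most 0.42 CPM in any of them, and 16 over the polyA miR-106b libraries, and passed the filter only through groups other than polyA control. Mavs, the mitochondrial adaptor of RIG-I and MDA5, rose by 0.47 ± 0.129 (SE, adjusted p = 0.0116) and Tlr9 by 1.37 ± 0.393 (SE, adjusted p = 0.0145). Traf3 fell, at -0.37 ± 0.107 (SE, adjusted p = 0.0155). Oas2, Oas3 and Oas1b rose among 6 other RNA-directed enzymes, Oas2 by 1.29 ± 0.207 (SE, adjusted p = 0.000736). Among 6 brakes on signalling the phosphatase gene Ptpn6 rose by 1.16 ± 0.236 (SE, adjusted p = 0.00223) and Ptpn2 fell, at -0.69 ± 0.253 (SE, adjusted p = 0.0454). Of 7 targets of NF-kB and chemokines tested Ccl5 and Icam1 rose and Tnfaip3 fell. In Ago2-IP RNA 0 of the 44 genes were called, and 3 had an unadjusted p under 0.05.

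Sites for the seed of miR-106b-5p were looked for in the longest annotated 3′UTR of each gene (GENCODE M21). A site of 7 bases, GCACTTT, was present in 7 of the 33 ISGs (21.2%), Irf7, Irf9, Eif2ak2, Ifit1, Ifit3, Cmpk2 and Xaf1, and in 15.3% of the 13234 tested genes with a 3′UTR. The site of Irf9, followed by A, was the 1 longer match of 8 bases. The sites of the 2 transcription factor genes are shown with the match in capitals, starting at base 216 of the 3′UTR of Irf7 and base 348 of that of Irf9.
Irf7 site: cttcgacttcaGCACTTTcttccgagaac
Irf9 site: tctaaatctaaGCACTTTatatattttat
Of these 7 genes Irf7, Irf9, Cmpk2 and Xaf1 rose in polyA RNA and Eif2ak2, Ifit1 and Ifit3 were not called. The Ago2:polyA ratio of Irf7, Cmpk2 and Xaf1 was lower with miR-106b and that of the other 4 was not called. By the same interaction test Ifit3 was called without polyA miR-106b replicate 3, at an adjusted p of 0.0169. Ifit1 was called without polyA miR-106b replicate 1, at 0.0352, and Irf9 without polyA control replicate 4, at 0.0464. A match is a description of these letters and not a site of regulation.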

How the data were processed

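Counts per gene were deposited by the authors for 16 libraries, with no normalization and no filter. Per the labels and the methods of the study, libraries were single-end and not strand-specific, ribosomal reads were removed, reads were aligned to GRCm38 with TopHat2 and counted with HTSeq. The submitters' processing notes name TopHat2 2.0.10, while the methods name another version. All columns of the table were used. The 33 members and all gene lists were chosen with earlier results of these data known.

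The analysis ran in R 4.3.3 on edgeR 4.0.16 (TMM scaling, robust quasi-likelihood test, two-sided, Benjamini-Hochberg adjustment over 14897 genes, threshold 0.05, prior count 0.125) and limma 3.58.1. PolyA and Ago2-IP libraries were fitted apart, the control transfection of both kinds together, and the ratio as an interaction over all 16. Each group held 4 libraries. CPM were scaled by TMM within each RNA kind, and marker sums and CPM per cardiac marker by library size. Values are given in every library for members with a mean of at least 5 CPM in 1 group and for 8 members whatever their level, and statistics for members called and the 5 most abundant, and of the other lists for the genes called and 4 set genes, of which 1 is not reported here. Irf8 was not analysed here. Exon lengths are the union of exons in GENCODE M21. Replicate numbers were not used to pair libraries in the main fits. Deviations of same-numbered libraries had correlations of -0.42 to 0.26, which cannot show whether these libraries were handled together. Alternatives were DESeq2 1.42.0, other scalings and filters, a replicate block, a likelihood ratio test, prior count 2, 1 fit of all 16 libraries and leaving out each library. The fits were run on simulated counts with the same dispersion for all genes and few changed genes. Far more genes were called in these data, so that the simulation is a check of the code only. Figures were drawn with matplotlib 3.10.9.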

Additional observations from a re-analysis of the deposited data

Results flagged for a closer look

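Among 132 groups of 4 libraries, 33 genes in 4 groups, 3 held a library far from the other 3, by Dixon's gap criterion at its 95% critical value, which flags about 1 group in 20 by chance. Oas1a was at 7.49 CPM in polyA miR-106b replicate 2, with the others at 3.31 to 3.58 CPM. Mx1 was at 3.75 CPM in polyA miR-106b replicate 2, with the others at 1.57 to 1.85 CPM. Rsad2 was at 2.94 CPM in polyA control replicate 2, with the others at 5.54 to 5.85 CPM. Replicate 2 of polyA miR-106b had the most cardiac counts of its group and replicate 2 of polyA control the fewest of its own.

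The change with miR-106b differed between Ago2-IP and polyA RNA in 20 of the 33 ISGs (interaction term, edgeR's quasi-likelihood test, adjusted p under 0.05). This term was fitted with all 16 libraries scaled together. Its values are therefore not the exact differences of the changes fitted apart for each RNA kind. By this term the log2 change in Ago2-IP RNA minus that in polyA RNA was, from the most negative, Ddx60 -3.00, Oasl2 -1.59, Gbp3 -1.56, Oas1a -1.53, Rsad2 -1.50, Irf7 -1.44, Rtp4 -1.38, Lgals3bp -1.29, Ifih1 -1.28 and Cmpk2 -1.24. For the other 10 it was Dhx58 -1.21, Gbp2 -1.19, Bst2 -1.16, Zbp1 -1.12, Isg15 -1.10, Xaf1 -0.92, Dtx3l -0.90, Parp14 -0.76, Stat2 -0.72 and Ifitm3 -0.49. Ddx60 passed the filter on low counts only through groups where it is higher than in polyA control, where it had 8 counts, and its place in this order rests on them. The adjusted p ran from 2.72e-05 for Irf7 to 0.0254 for Ddx60. In each of the 20 the fitted change was larger in polyA than in Ago2-IP RNA. Of the 20 calls 4 were lost on leaving out 1 library. That of Ddx60 was lost without polyA miR-106b replicate 3, Ago2-IP control replicate 1, Ago2-IP control replicate 3 or Ago2-IP miR-106b replicate 2, with adjusted p of 0.051, 0.0586, 0.0709 and 0.0504. That of Xaf1 was lost without polyA control replicate 2, polyA miR-106b replicate 2 or polyA miR-106b replicate 4, with adjusted p of 0.0559, 0.0566 and 0.055. That of Ifih1 was lost without polyA miR-106b replicate 2, at an adjusted p of 0.0661. That of Oas1a was lost without polyA miR-106b replicate 2, at an adjusted p of 0.0656. Outside the 20, Irf9, Ifit1, Ifit3, Usp18, Parp9 and Trim25 were each called on leaving out a certain library. With no filter on low counts the calls of Ifitm3, Parp14 and Xaf1 were lost, at adjusted p of 0.114, 0.059 and 0.1255, and with library size only that of Xaf1, at an adjusted p of 0.051.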

How the results depend on the processing

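The count of ISGs that rose in polyA RNA was 19 to 25 under the other scalings, filters and tests and 15 to 23 on leaving out 1 library, and none fell under any of them. The median log2 change in polyA RNA was 0.64 to 1.07 on leaving out 1 library. Leaving out polyA miR-106b replicates 2 and 4 together, chosen after seeing the data, gave 7 ISGs, a median of 0.56 and a log2 fold change of -0.29 for Ifit3, against 0.41 with all libraries. For the ratio the count was 17 to 23 and the median -1.20 to -0.80 on leaving out 1 library, and the median was -0.87 with at least 10 counts in every library, where 27 of the 33 ISGs were tested. In Ago2-IP RNA 0 ISGs were called under each alternative run. The Ago2-IP against polyA count was 27 to 28 on leaving out 1 library. Values near 0 changed sign: the polyA log2 fold change of Ifi35 was 0.019 with all 16 libraries in 1 fit and -0.16 to 0.038 on leaving out 1 library. With library size only the ratio change was 0.0076 for Eif2ak2 and 0.11 for Ifit2, and the Ago2-IP against polyA difference was -0.078 for Eif2ak2 and -0.091 for Ifi35, against -0.16, -0.061, 0.21 and 0.20 as first fitted. The ratio change of Ifit2 was 0.083 with no filter, 0.085 with TMM within each RNA kind and -0.23 to 0.073 on leaving out 1 library. The cause of these moves was not tested.

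With the replicate number as a block 19 ISGs rose in polyA RNA, without Ifih1, Ifitm3 and Usp18, and the calls were 20 for the ratio, 0 in Ago2-IP RNA and 28 between the RNA kinds. The numbers are shared between groups, and whether they mark libraries handled together is not given in the sources used here. Depth limits the least abundant ISGs, such as Ddx60 with 83 counts and Mx1 with 217 counts in all 16 libraries.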
